A study of Mus musculus with 6 samples.

Results

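Slc25a37, Entpd4 and 4 transcripts known only by RIKEN clone names were followed across bone marrow cells of mice with and without the formin mDia2. The set was taken from an annotated array table as every probe listed under 8 symbols: Slc25a37, its older names Mscp and Mscp-pending, Entpd4, 9430065F12Rik, A430089I07Rik, 6430530L21Rik and D930049F02Rik. This gave 12 of the 45281 probes, which belonged to 6 of 28852 genes or unmatched names once old names were joined. The symbols had been chosen because some of their probes were undetected in the knockout mice, so the knockout and wild type signals of all 12 probes are given as a description; where members stand in the fit over all probes is stated for completeness and supports nothing. Ter119+ cells, an erythroid fraction, came from the marrow of 6 mice of strain C57BL/6, aged 4 months, and the RNA of each mouse was read on its own Illumina bead array. There were 3 wild type mice and 3 conditional knockout (mDia2 KO) mice, described by the submitters as biological triplicates. The labels name the targeted formin and call the knockout conditional, but the Cre driver and the strain background of the targeted allele are not given in the sources used here.

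Slc25a37 encodes mitoferrin 1, a carrier of the mitochondrial inner membrane that brings iron into the matrix, where ferrochelatase inserts it into protoporphyrin to make heme. Erythroblasts, the nucleated precursors of red cells, make heme in bulk and depend on this carrier, and loss of its orthologue in the zebrafish mutant frascati causes anaemia. Entpd4 encodes a nucleoside diphosphatase of the Golgi and of lysosomal and autophagic vacuoles, which hydrolyses diphosphates such as UDP. RefSeq (assembly GRCm38.p6) places Slc25a37 and Entpd4 close together on chromosome 14, with 1 protein-coding gene, Synb, between them, and gives both genes the synonym 4930513O14Rik. Diaph3, which encodes mDia2, lies on the same chromosome, 89 protein-coding genes beyond Entpd4. The 4 RIKEN names matched neither a symbol nor a synonym in that table, so no gene, role or position is given to them.

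The arrays detected between 14815 and 16951 probes each, a probe being called detected when its deposited detection p was under 0.05. The median signal of undetected probes, which stands for the background, lay between 86.7 and 89.5, and the lowest signal of any detected probe lay between 97.1 and 101 on the 6 arrays. The larger of the 2 Diaph3 changes was a fall to 47.0% of the wild type mean, from 993 ± 45.3 to 467 ± 118 (SD, n = 3 each), with a limma adjusted p of 0.0917 that does not pass 0.05. All log2 changes are knockout minus wild type, and their median over 11033 tested genes was -0.11. Of 10 erythroid markers 9 were detected, with summed signals of 142171 to 156960 in wild type and 156160 to 160090 in knockout mice; the probe of Epb42, a red cell membrane protein, was undetected on all arrays. All 9 measured neutrophil markers were lower in every knockout mouse than in any wild type mouse, beside 23.4% of all tested genes. Their summed signals were 35293 to 48102 in wild type and 14088 to 25054 in knockout mice, and none was undetected throughout. In such bulk samples, fewer cells of a type and less RNA per cell cannot be told apart.

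By name 4 probes were filed under mitoferrin 1, of which a bright pair overlapped between the genotypes and a dim pair was detected in wild type mice alone. No probe could be placed within a transcript here, so whether the dim pair reads mitoferrin 1 was not tested. The probe ILMN_2696609, listed as Mscp, read 15049, 14980.5 and 12741 in wild type replicates 1 to 3 and 12497, 12729.8 and 14553 in knockout replicates 1 to 3. Its groups overlapped: the lowest wild type mouse lay below the highest knockout mouse, and the means were 14257 ± 1313 and 13260 ± 1126 (SD, n = 3 each). The probe ILMN_2696610, listed as Slc25a37, shares a search key with the first in the deposited annotation, that is, both are filed under one target. It read 13335, 15229 and 13343 in wild type and 11920.3, 12999 and 14205 in knockout mice. Again the groups overlapped, and the log2 change was -0.10 for each of these probes, next to -0.11 for the median gene. The difference between the group means of each probe was smaller than the SD between mice of either genotype.

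The remaining probes filed under this gene are both listed as Mscp-pending, under search keys of their own. Only this older name ties them to Slc25a37. ILMN_2551648 read 326, 398 and 324 in wild type mice and 95.0, 86.0 and 88.7 in knockout mice. Every wild type mouse was clearly above background and every knockout mouse was undetected, with the lowest knockout detection p at 0.0940. The wild type mean was 349 ± 41.9 and the knockout mean 89.9 ± 4.62 (SD, n = 3 each). Since a probe at background has only a bound, the knockout signal was at least 3.55-fold lower, computed from the mean wild type log2 signal against the higher, on each knockout array, of the probe's own signal and the lowest detected signal. ILMN_1216055, the other Mscp-pending probe, read 98.6, 101 and 102 in wild type and 86.6, 86.0 and 89.0 in knockout mice. It only just counted as detected in wild type mice, with a highest detection p of 0.0470, and its bound was at least 1.03-fold lower. The groups did not overlap for either Mscp-pending probe, whereas they did for the brighter pair. Probes silent in knockout mice nearly always separate in this way, and 15.3% of all probes were lower in every knockout mouse. Nothing is therefore read from this contrast.

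**Figure D1:**
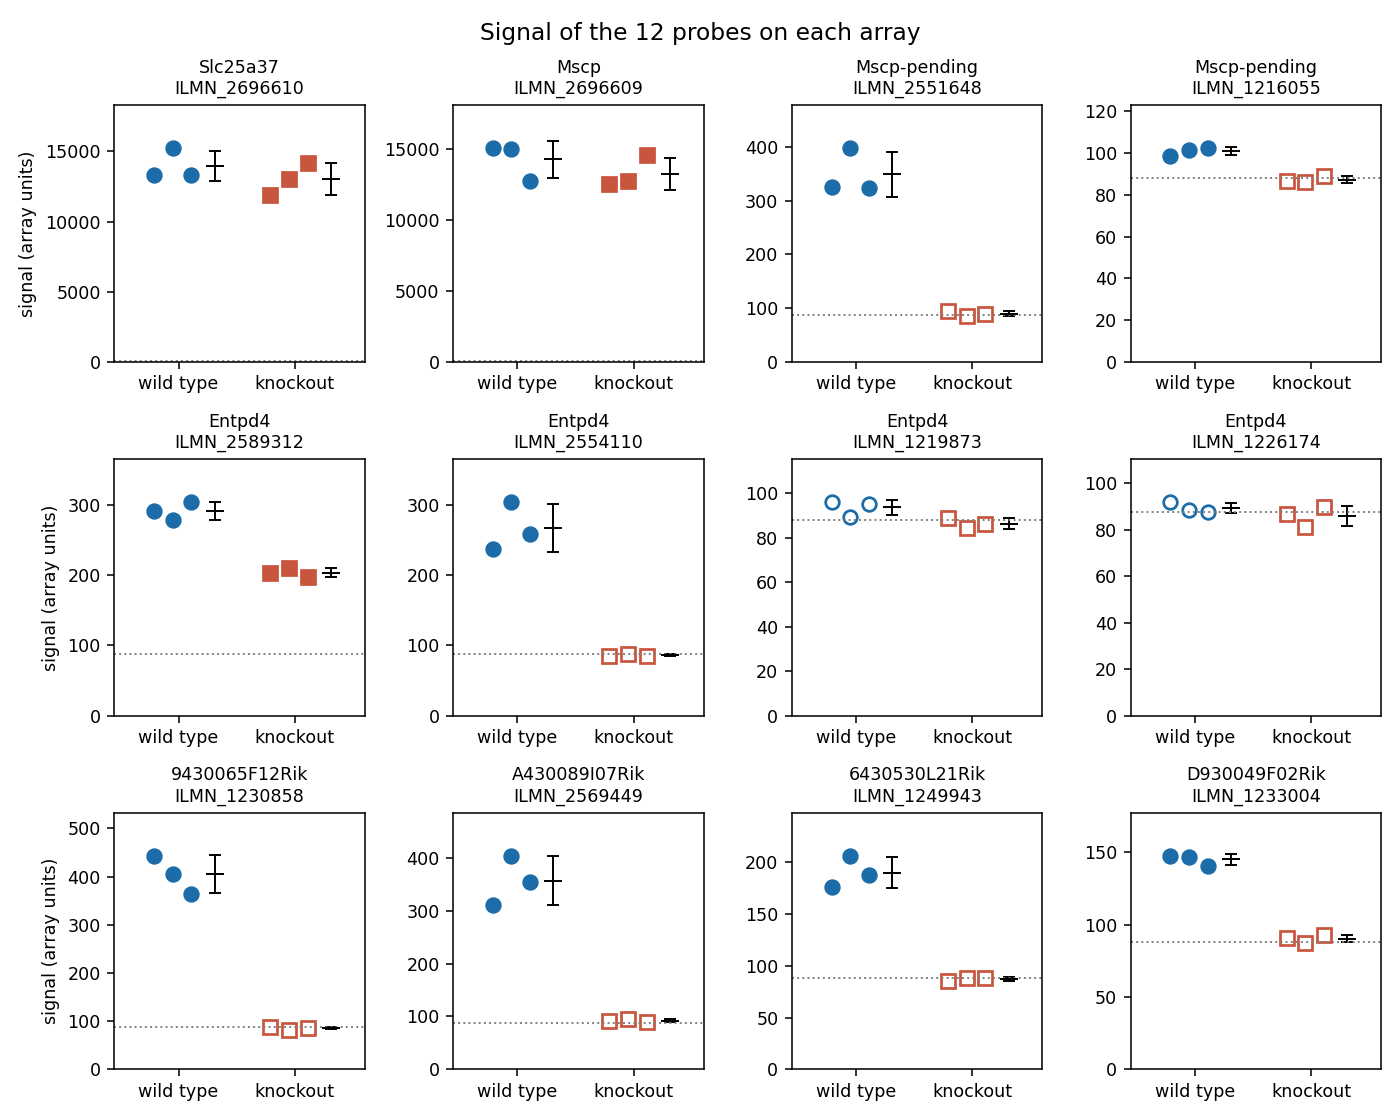
Signal in array units (linear axes from 0) of each of the 12 probes, with wild type arrays as blue circles and knockout arrays as red squares, replicates 1 to 3 from left to right. Filled symbols are detected and open symbols undetected, black bars show the mean ± SD of 3 arrays, and the dotted line is the mean over arrays of the median signal of undetected probes; 7 probes are filled in every wild type mouse and open in every knockout mouse.

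Entpd4 also had 4 probes, of which 2 were detected. ILMN_2589312 read 292, 279 and 305 in wild type mice and 203, 211 and 198 in knockout mice. It was detected on all 6 arrays, and the groups did not overlap. The means were 292 ± 13.0 and 204 ± 6.62 (SD, n = 3 each), a ratio of 69.9% with background included, and the log2 change was -0.52. ILMN_2554110 read 238, 304 and 258 in wild type mice and 85.3, 87.3 and 84.7 in knockout mice. Here the knockout mice were at background, with detection p of 0.412 or more, and the signal was at least 2.71-fold lower. Both probes therefore read lower in every knockout mouse, but one kept a detected signal and the other did not.

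The other Entpd4 probes gave no measurable signal in either genotype. ILMN_1219873 read 96.0, 89.4 and 95.1 in wild type and 88.7, 84.2 and 85.9 in knockout mice. ILMN_1226174 read 92.0, 88.6 and 87.7 in wild type and 86.9, 81.1 and 89.9 in knockout mice. Both were undetected on all 6 arrays and were left out of the fit. ILMN_1226174 shares its search key with ILMN_2589312, so 1 filed target had a probe detected in all mice and a probe detected in none. The gene table lists Entpd4b, a second gene of that name, shortly after Entpd4 on the chromosome, and no probe carries its name here, so signal from a similar copy cannot be told apart from Entpd4.

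The 4 RIKEN transcripts had 1 probe each, all detected in every wild type mouse and in no knockout mouse. 9430065F12Rik read 443, 405 and 364 in wild type mice and 87.3, 82.6 and 86.2 in knockout mice. A wild type mean of 404 ± 39.5 thus stood against 85.4 ± 2.49 (SD, n = 3 each), and the signal was at least 4.12-fold lower. A430089I07Rik read 311, 404 and 355 in wild type mice and 91.7, 95.9 and 88.9 in knockout mice. Its bound was at least 3.63-fold lower, and knockout replicate 2, with a detection p of 0.0716, came nearest to detection among the silent probes of the set. 6430530L21Rik read 176, 206 and 188 against 85.2, 87.8 and 88.3, and D930049F02Rik read 148, 147 and 141 against 90.8, 87.5 and 92.8. These dimmer probes had bounds of at least 1.94-fold and at least 1.48-fold lower. In all 4 the groups did not overlap, which their choice as silent probes favours. Of the 148 probes outside the set with the same detection pattern, 147 did not overlap either. Wild type SDs were 3.78 to 46.5 and knockout SDs 1.67 to 3.53.

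Counted over the set, 7 of 12 probes were detected in all 3 wild type and none of the 3 knockout mice, whereas 0.342% of all probes on the array, 155 in number, met that description. The reverse was seen in 0 members, beside 0.0707% of all probes. At a stricter detection p of 0.01 the set held 6 such probes, ILMN_1216055 dropping out. Of the 12 probes, 9 were lower in every knockout mouse than in any wild type mouse, where 15.3% of all probes were. Among the 10 tested members this held for 8, beside 23% of tested probes, and 0 were higher in every knockout mouse, beside 1.98%. Because the members were picked from this contrast, nothing is read from these counts. In limma, with p-values of all 15743 tested probes adjusted together by Benjamini-Hochberg, 6 of the 10 tested members passed as lower beside a background of 0.0889%, or 14 probes, and 0 passed as higher beside a background of 0 probes; 201 probes were higher and 2770 lower at an unadjusted p under 0.05. These 6 entered the fit only through their wild type arrays and were chosen for being silent in knockout mice. Nothing is therefore read from this count either. The Entpd4 probe detected in all mice and the 2 bright mitoferrin probes did not pass. That Entpd4 probe did pass without knockout replicate 2, with no filter on dim probes and with array weights.

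**Figure D2:**
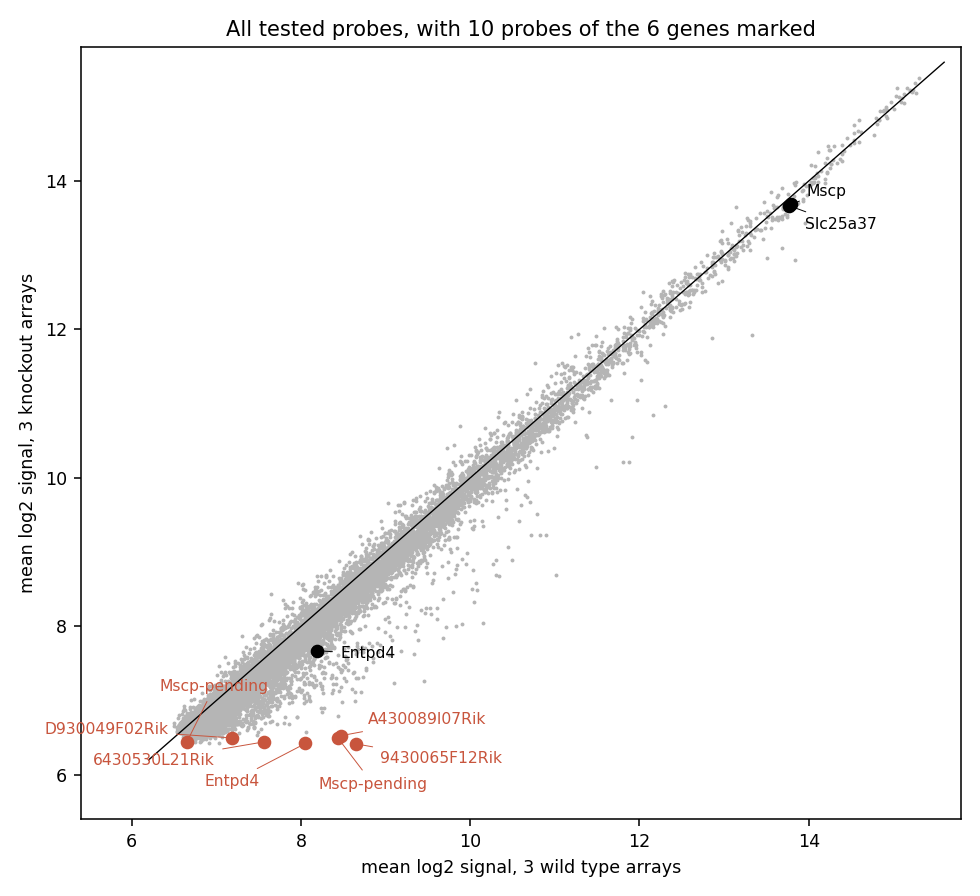
Mean log2 signal of each of the 15743 tested probes (grey) in 3 wild type arrays (horizontal) and 3 knockout arrays (vertical), with the line of equality. The 7 probes marked in red were undetected in every knockout mouse and lie along the floor near a log2 signal of 6.4 to 6.5, whereas the Mscp and Slc25a37 probes (black, top right) lie near the line.

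The place of the 7 members among the 155 probes silent in knockout mice restates how they were chosen. Most of the rest were dim: the median wild type mean of the 148 that are no members was 109. Those with the largest log2 change, measured against knockout signals at background, were Fn1, the gene of fibronectin (222 ± 187, SD, n = 3), and LOC637260 (147 ± 47.5, SD, n = 3), both with a larger SD between wild type mice than any silent member. The next in rank were Gp1bb, a subunit of the platelet von Willebrand factor receptor (log2 change -0.61), the pyruvate kinase gene listed as Pkm2 (-0.55), Sdpr, now Cavin2, a caveolar coat gene (-0.51), and the sulfotransferase Chst3 (-0.50). None of the 148 passed in limma. The count of 155 rested on all 6 arrays, and it was 198 to 467 with 1 array left out; without wild type replicate 1 it was 292, without wild type replicate 2 it was 405, without knockout replicate 2 it was 467 and without knockout replicate 3 it was 237.

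The silent probes did not share one order among the wild type mice. In 4 of the 7, namely A430089I07Rik, 6430530L21Rik, ILMN_2551648 and the Entpd4 probe ILMN_2554110, wild type replicate 2 had the highest signal. 9430065F12Rik and D930049F02Rik were highest in wild type replicate 1, and ILMN_1216055 in wild type replicate 3. The summed neutrophil markers were 44049, 35293 and 48102 in wild type replicates 1 to 3. As background for the other marker lists, 81.2% of all tested genes had a log2 change below 0. The share lower in every knockout mouse than in any wild type mouse was 23.4% of tested genes and 15.3% of all probes. Tested genes leave out probes undetected throughout, whereas the marker counts include them. Summed B lineage markers were 1370 to 1613 in wild type and 1049 to 1111 in knockout mice. Of 9 markers, 8 were lower on average and 4 lower in every knockout mouse, and Pax5 was undetected throughout. Megakaryocyte and platelet markers summed to 2005 to 2911 and 1623 to 1693. All 10 were lower on average and 9 lower in every knockout mouse, and Itgb3 was undetected throughout. Monocyte and macrophage markers were lower on average in 10 of 10 and lower in every knockout mouse in 4, at 11757 to 31323 against 5006 to 10679. T and NK markers summed to 598 to 711 and 550 to 592 over 6 measured markers, of which Cd3g and Cd8a were undetected throughout. Their median log2 change was -0.05, and 1 of 6 did not overlap. Signals so near background hold a change near 0, so this median is not set against that of all tested genes. The part of these cell types in the members' signals was not tested.

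By likeness of pattern, measured as the root mean square difference between log2 signals centred on each probe's own mean over the 6 arrays, the probe most like ILMN_2551648 was A430089I07Rik at 0.08. Next came ILMN_2554110 of Entpd4 at 0.17 and 9430065F12Rik at 0.19, followed by the probes of the unnamed transcript LOC383196 at 0.29 and 0.32. So the nearest 3 of the 15743 tested probes were members, which the choice of members by this contrast favours. The LOC383196 probes, unlike these 3 member probes, which were chosen for silence, were detected in all 3 knockout mice. Their means were 127 and 142 there against 360 and 418 in wild type mice. For the bright probe ILMN_2696609, the nearest were the mitochondrial thioredoxin gene Txn2 at 0.03, and Foxa1, LOC216963, Auh and Slc25a39, each at 0.05. Slc25a39 encodes a mitochondrial carrier of glutathione. The log2 changes of these 5 lay between -0.16 and -0.06.

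How far the probes of one gene differed was described across the array. For each of 3292 genes with at least 2 tested probes, the lowest log2 change over its probes was subtracted from the highest. The median of this spread was 0.11 and its 95th percentile 0.37. Slc25a37 ranked 1, with a spread of 1.85, and Entpd4 ranked 7, with 1.11; without wild type replicate 2 these ranks were 2 and 15, and without knockout replicate 2 that of Entpd4 was 13. Both genes were chosen for probes that are silent in knockout mice, so their ranks are a description. Since those probes sit at background there, the size of the spread depends on how background is treated, and for Slc25a37 it was 4.01 once background was subtracted. Ranked between them were Arhgdib (1.54), Ifi27 (1.51), the neutrophil enzyme gene Mpo (1.45), Tpd52 (1.20) and Pglyrp1 (1.12), a peptidoglycan recognition protein of neutrophil granules. The Ifi27 probes were listed as Ifi27 and as D12Ertd647e, and the silent Slc25a37 probes as Mscp-pending. Such probes were joined by name alone, so whether they read the same gene was not tested. In Arhgdib and Tpd52 the probe with the smaller change was near background, with wild type means of 104 and 103. In Slc25a37 the smallest changes were those of the bright pair, with wild type means of 14257 and 13969, far above background. Its probe ILMN_1216055 also changed little (-0.21), but near background, with a wild type mean of 101. The target Diaph3 ranked 11, with a spread of 0.92 between its 2 probes.

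**Figure D3:**
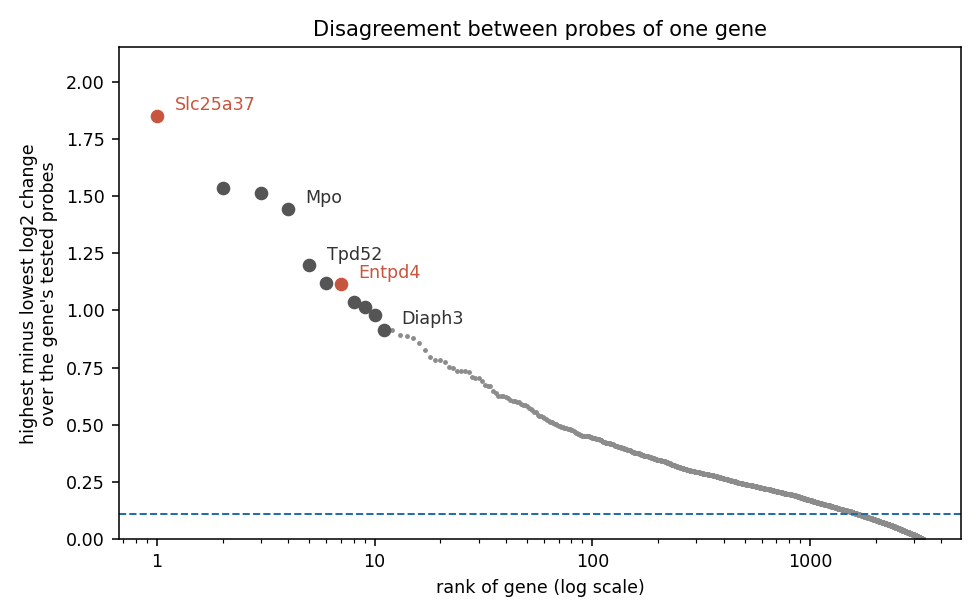
Spread of log2 change (highest minus lowest) over the tested probes of each of 3292 genes, against the rank of the gene on a log axis; the 11 highest are enlarged, Slc25a37 (1.85, rank 1) and Entpd4 (1.11, rank 7) are red, and the dashed line is the median of 0.11.

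The genes that work beside mitoferrin 1 were set next to its probes. Of 36 genes of mitochondrial iron use, heme synthesis, iron-sulfur cluster assembly and iron uptake, 31 were tested. In limma 0 passed as lower and 0 as higher, beside backgrounds of 0.0997% and 0% of tested genes; 4 were lower and 2 higher at an unadjusted p under 0.05. Their median log2 change was 0.02, with 16 above and 15 below 0. Slc25a28, Abcb10, Fech and Alas2 are named for their ties to mitoferrin 1, after their values were seen. Slc25a28, mitoferrin 2, which imports iron in other tissues, read 592 ± 50.5 in wild type and 481 ± 77.1 in knockout mice (SD, n = 3 each), a log2 change of -0.31 (limma adjusted p = 0.259). Abcb10, an inner membrane transporter that stabilises mitoferrin 1, read 1120 ± 190 and 1126 ± 381 (SD, n = 3 each), with overlapping groups. Ferrochelatase, Fech, the enzyme that uses the imported iron, had a log2 change of 0.23 by its brightest tested probe (limma adjusted p = 0.388). The changes of its tested probes had a spread of 0.38, beside a median spread of 0.11 over genes. The erythroid enzyme of the first step, Alas2, had a log2 change of -0.02 (limma adjusted p = 0.917).

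The 4 with the smallest p were Alas1, Urod, Uros and Flvcr1. Alas1, the housekeeping counterpart of Alas2, read 571, 452 and 737 in wild type and 287, 396 and 265 in knockout mice, a log2 change of -0.89 (SE 0.21, limma adjusted p = 0.172). Its groups did not overlap. It passed only with array weights and without knockout replicate 2. The heme pathway enzymes Urod and Uros had changes of 0.29 and 0.31, and the heme exporter Flvcr1 one of -0.35 (limma adjusted p from 0.180 to 0.206). For Uros this is the brightest tested probe, and its tested probes had a spread of 0.26. No overlap between groups was seen for 4 lower and 3 higher genes of the 31, beside 23.4% and 2.01% of all tested genes.

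Other members of the SLC25 family of mitochondrial carriers served as a second comparison. Of 45 on the array 29 were tested, 0 passed in limma, and 4 were lower and 0 higher at an unadjusted p under 0.05. The median log2 change was -0.11, equal to that over all genes, and the range was -0.48 to 0.08. Those with the smallest p were the pyrimidine nucleotide carrier Slc25a33 (-0.26), the adenine nucleotide carrier Slc25a5 (-0.29), Slc25a45 (-0.48) and Slc25a28, given above. For Entpd4 the comparison was with 15 nucleotidases and related enzymes, of which 9 were tested and 0 passed, with 1 lower and 0 higher at an unadjusted p under 0.05. Their median was -0.12. Entpd6, another Golgi family member, had a change of -0.24 (limma adjusted p = 0.187), the calcium-activated Golgi nucleotidase Cant1 -0.28, Nt5c3, the pyrimidine nucleotidase of red cells, 0.26, and Nt5c3b -0.15. Slc25a33 and Entpd6 were near background, each with a wild type mean of 121 and with knockout means of 101 and 102.

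**Figure D4:**
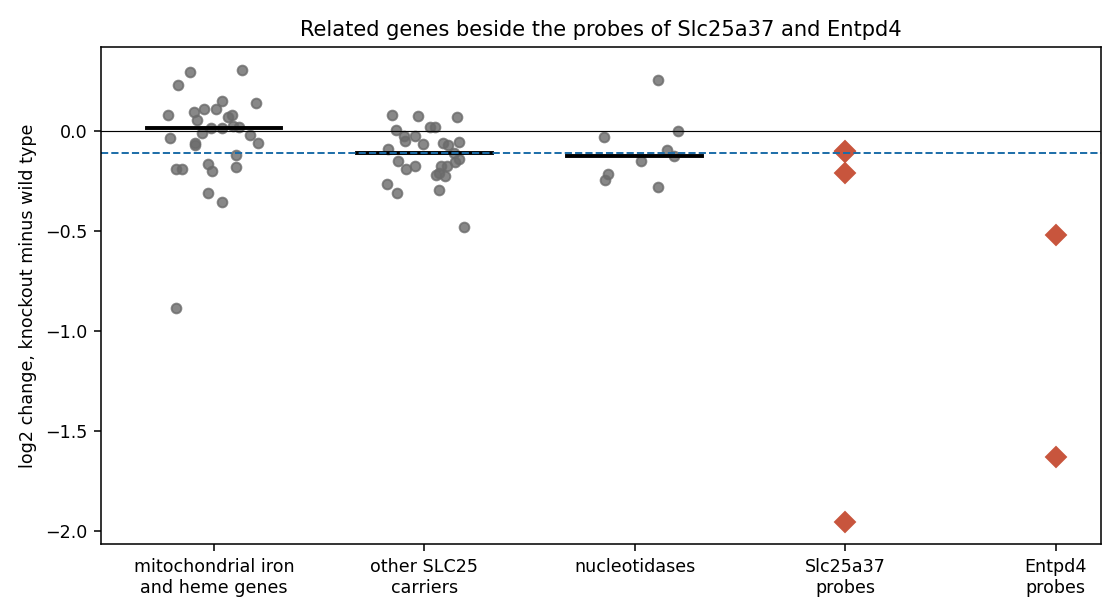
Log2 change, knockout minus wild type, of each tested gene in the list of mitochondrial iron and heme genes (31), other SLC25 carriers (29) and nucleotidases (9), with list medians as black bars, beside the tested probes of Slc25a37 (4, of which 2 coincide at -0.10) and Entpd4 (2) as red diamonds; the dashed line is the median of all tested genes, -0.11.

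Since Slc25a37 and Entpd4 are neighbours, the genes around them were examined, with those around Diaph3 for comparison. Synb, between them, was undetected on all 6 arrays. Of the 10 protein-coding genes on each side of the pair, 6 have no probe here, among them Entpd4b, Gm16867, Gm21451 and LOC115488278, which are the 4 that follow Entpd4. The nearest tested gene before the pair was Adam28, a membrane metalloprotease gene, at a log2 change of -0.07. Its tested probe, listed as C130072N01Rik, was near background, at means of 104 in wild type and 99.7 in knockout mice. The probes listed as Adam28 itself were undetected on all 6 arrays. The nearest tested gene after the pair was R3hcc1, at -0.15. The 5 tested neighbours of the pair ranged from -0.23 to 0.00, and all 5 had overlapping groups. Around Diaph3, 9 genes were tested and had a median of -0.15. Of these, 3 were lower in every knockout mouse than in any wild type mouse, beside 23.4% of all tested genes. With so few genes, no difference between the neighbourhoods is read from these counts. Its nearest tested neighbours were the ETS factor gene Elf1 (-0.07) and Tdrd3 (-0.15), and the smallest p among the neighbours were those of Bora, an activator of Aurora A kinase (-0.36, limma adjusted p = 0.180), Pibf1 (-0.32), Kbtbd7 (-0.21) and Wbp4 (-0.17). Over both neighbourhoods 0 of the 14 tested genes passed in limma, and 3 were lower and 0 higher at an unadjusted p under 0.05. The 34 neighbour genes on the array, of which 20 were not tested, had 75 probes. Of these 0 were silent in knockout mice, beside 0.342% of all probes. Many were undetected in wild type mice too and could not count as silent, so nothing is read from this 0. The median of the 14, -0.13, was 0.027 after quantile normalization, which moves the median of all genes to 0.01.

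**Figure D5:**
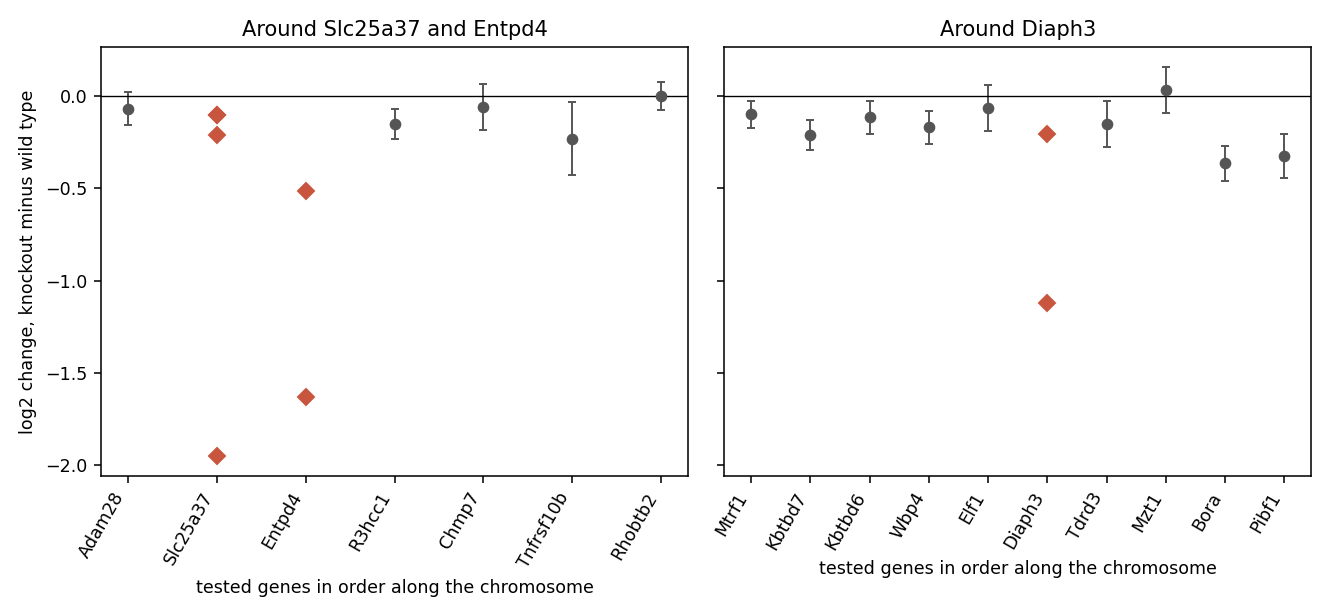
Log2 change, knockout minus wild type, of the tested genes around Slc25a37 and Entpd4 (left) and around Diaph3 (right), evenly spaced in their order along chromosome 14. Grey points are genes with the standard error of the limma fit as bars, and red diamonds are single probes of Slc25a37, Entpd4 and Diaph3; the neighbours lie between -0.36 and 0.04, while the silent probes, at background in knockout mice, are drawn at -1.95 and -1.63.

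Chromosome 14 as a whole held 7 of the 123 silent probes whose gene has a chromosome in the table, or 5.69%, beside 3.55% of all probes placed this way. Without the members these were 4 of 120, namely the probes of the B cell kinase Blk (log2 change -0.40), Rap2a (-0.26), Ptk2b (-0.26) and Appl1, listed as 2900057D21Rik (-0.26), named after their values were seen. The median change of the 296 tested genes on this chromosome was -0.12, within the range of -0.14 to -0.11 of the other autosomes.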

How the data were processed

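The deposited signals are linear intensity values, called normalized per the file headers, and each probe has a detection p-value on every array, also per the file headers. Software and method of normalization are not given in the sources used here. Undetected probes read near 88 rather than near 0, so the background is still in the values. The other deposited table repeats the same intensity values for all 45281 probes. Broken lines (2) were left out. Labels' protocols name Trizol extraction and Illumina TotalPrep labelling.

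Signals were log2 transformed. Probes detected (detection p under 0.05) on at least 3 of 6 arrays, 15743 in all, entered a limma fit (lmFit, eBayes; version 3.58.1, run under R 4.3.3), and two-sided p-values adjusted by Benjamini-Hochberg passed under 0.05. A gene is its probe with the highest mean. Symbols were updated through the RefSeq table: 27746 probes matched a symbol, 8106 a single synonym and 9429 neither, and "-pending" was dropped. With 3 mice per genotype the smallest two-sided p of an exact permutation test is 0.1, so none was run.

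Members and lists were chosen with earlier results of these data known. From each list the 4 genes of smallest unadjusted p were named, and of silent probes the 12 with the largest change. The code was tested on simulated data. The number of arrays limits precision. No sequence is shown.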

Additional observations from a re-analysis of the deposited data

How the results depend on the processing

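All 14 calls were lower. The count was 5 with the replicate block, 4 with probes detected on all 6 arrays (a filter that leaves only 3 members in the fit, and no silent one), 130 with an intensity trend (128 lower, 2 higher) and 190 with array weights (170 lower, 20 higher). Quantile normalization gave 14 (4 higher) and no filter on dim probes gave 2 higher. With each array left out, calls ranged from 8 to 187 (7 to 163 lower, 0 to 24 higher), with 44 when wild type replicate 2 was dropped, 187 when knockout replicate 2 was, and 8 each for wild type replicate 3 and for knockout replicates 1 and 3. Members called were 4 with the block, 0 with the filter on all 6 arrays, and 5 to 7 otherwise. Equal replicate numbers did not pair the mice: correlations of deviations from the group means were 0.22, -0.28 and -0.19, so the block result says nothing of weaker effects.

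Subtracting the median of undetected probes, with a floor of 16, raised the spread over Slc25a37 probes from 1.85 to 4.01 and put the change of 9430065F12Rik at -4.30 in place of -2.24, because the knockout signals then sit at the floor. Members' direction held in each alternative except ILMN_1216055, which is 0 after subtraction. The median of the chromosome 14 neighbours was 0.027 after quantile normalization, -0.23 after subtraction, -0.065 without a filter, and -0.16 to -0.08 with each array left out. One iron and heme gene, Alas1, was called with array weights (1) and without knockout replicate 2 (range 0 to 1). Silent probes numbered 110 at a detection p under 0.01 and 198 to 467 with each array left out, where fewer arrays have to meet the condition. Dim probes limit all bounds.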

Other observations

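The reverse pattern, detection in every knockout mouse and in no wild type mouse, was rarer and fainter. It held for 32 probes (0.0707% of all probes), or 54 to 106 with each array left out and 19 at a detection p under 0.01. The embryonic globin Hbb-y had the largest change of these, from 97.3 ± 2.51 to 116 ± 8.02 (SD, n = 3 each), 0.25 on the log2 scale. After it came A630024K09Rik (0.25), Inip, listed as 1110054O05Rik (0.22), the olfactory receptor gene Olfr536 (0.20), B930088D13Rik (0.16), Auts2 (0.13), the kinase Pim2 (0.12), Figla (0.12), Zfyve28 (0.11), Pi4k2b (0.11), Snph (0.10) and LOC383208 (0.10). No knockout mean among the 32 exceeded 116, and none of the 32 passed in limma.

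Among names whose probes differ widely, Ifi27 had probes on opposite sides of 0. Its probes are listed under different symbols, joined here through a synonym. Whether they read the same gene was not tested. The probe listed as Ifi27 had means of 398 in wild type and 184 in knockout mice, a log2 change of -1.04. Both probes listed as D12Ertd647e were higher in knockout mice on average. Their log2 changes were 0.44 and 0.47, and their wild type means 3054 and 2123. Unlike the silent Mscp-pending probes, all 3 were well above background in both genotypes.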
